A study of Homo sapiens with 6 samples.

Results

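Accessibility was examined at 61 human genes for cyclins, cyclin-dependent kinases (CDKs), E2F transcription factors and their closest regulators, taken from 20033 protein-coding genes on 24 chromosomes. Members were chosen by symbol alone, from the RefSeq gene table of the human GRCh38.p14 assembly: 19 symbols made of CDK and digits, 27 made of CCN and a letter, 8 made of E2F and a digit, and 7 taken by name (RB1, RBL1, RBL2, CDKN1B, CDKN1C, CDKN2C and CDKN2D). The rule itself uses no value from the files, but earlier results of these data were known when it was set. The assay was ATAC-seq, in which a transposase cuts and tags DNA that is free of nucleosomes, so that a peak of tagged fragments marks open chromatin. The nuclei came from Jurkat, an established human T-cell leukaemia line. In the simulated microgravity group (SMG, 3 libraries) the nuclei, not intact cells, were turned in a random positioning machine at 30 degrees per second for 30 min at 37 °C. In the normal gravity group (NG, 3 libraries) no rotation is named, and both groups share the cell line, 50000 cells per library, a 3 min lysis and a 30 min transposition at 37 °C. Whether rotation and transposition ran together is not stated in the labels. They also do not name separate cultures, so p-values here rest on the spread among libraries that may be technical replicates.

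CDKs are kinases that mostly act when bound to a cyclin. In dividing cells D cyclins with CDK4 or CDK6, then E and A cyclins with CDK2, phosphorylate the pocket proteins RB1, RBL1 and RBL2, which frees E2F factors to switch on genes for DNA replication, and A and B cyclins with CDK1 then drive mitosis. Another set of CDKs and cyclins acts mainly on RNA polymerase II and on the Mediator complex. Of these, CDK7 and CCNH also form part of the CDK-activating kinase. Jurkat cells grow continuously in culture, and T cells are known for their use of cyclin D3 and CDK6 during thymic growth.

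The lists held 42222, 42399 and 39624 peaks in SMG 1 to SMG 3, and 37782, 43713 and 40601 in NG 1 to NG 3. No read totals stand in the lists, and the background pileup recovered from the deposited values, which moves with depth, was 1.59 to 1.73 fragments per base in SMG and 1.17 to 1.77 in NG. NG 1 was lowest in peaks, in background and in the share of genes with a peak, and the names of peaks in SMG 3 carry the word "normalized", which the labels do not explain. All 10 T-cell marker genes examined had gene-end peaks in every library, while 0 of 5 B-cell, 0 of 5 myeloid and 0 of 3 epithelial markers had any. Of the other markers, NKG7 of NK cells and COL1A1 of fibroblasts were open in all 6, ALAS2 of erythroid cells in 3 and COL1A2 in 1, and the other 6 of 10 in none.

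A gene was called open in a library if a peak overlapped the 1 kb to either side of either end of the gene, and the strength of its best peak was given as a percentile of that library's peaks by −log10 q-value (100 is the strongest peak, 0 stands for no peak). In SMG 1 to SMG 3, 49, 51 and 52 of the 61 genes were open, against 46, 54 and 50 in NG 1 to NG 3. The mean was 50.67 ± 1.53 in SMG and 50.0 ± 4.0 in NG (SD, n = 3 each), and the SMG range lies inside the NG range. In all 6 libraries 45 of the 61 (73.8%) were open, while 46.6% of all protein-coding genes were. Another 9 genes were open in 1 to 5 libraries and 7 in none. At 13 of the 54 genes with a peak, a gene-end region also lay at an end of another protein-coding gene. Such a peak may not belong to the named gene. Besides those named as shared further on, these were CDKN2C (FAF1), CDKN2D (KRI1), CDKN1B (GPR19), CCNA2 (BBS7), CDK5 (SLC4A2), CCNE2 (NDUFAF6) and E2F3 (LOC124901482). Among genes open in all 6, the median of the mean percentile was 87.0 for the cyclin, CDK and E2F genes and 81.0 for all protein-coding genes. An open site in more nuclei and a site more open in each nucleus cannot be told apart in such bulk lists.

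**Figure D1:**
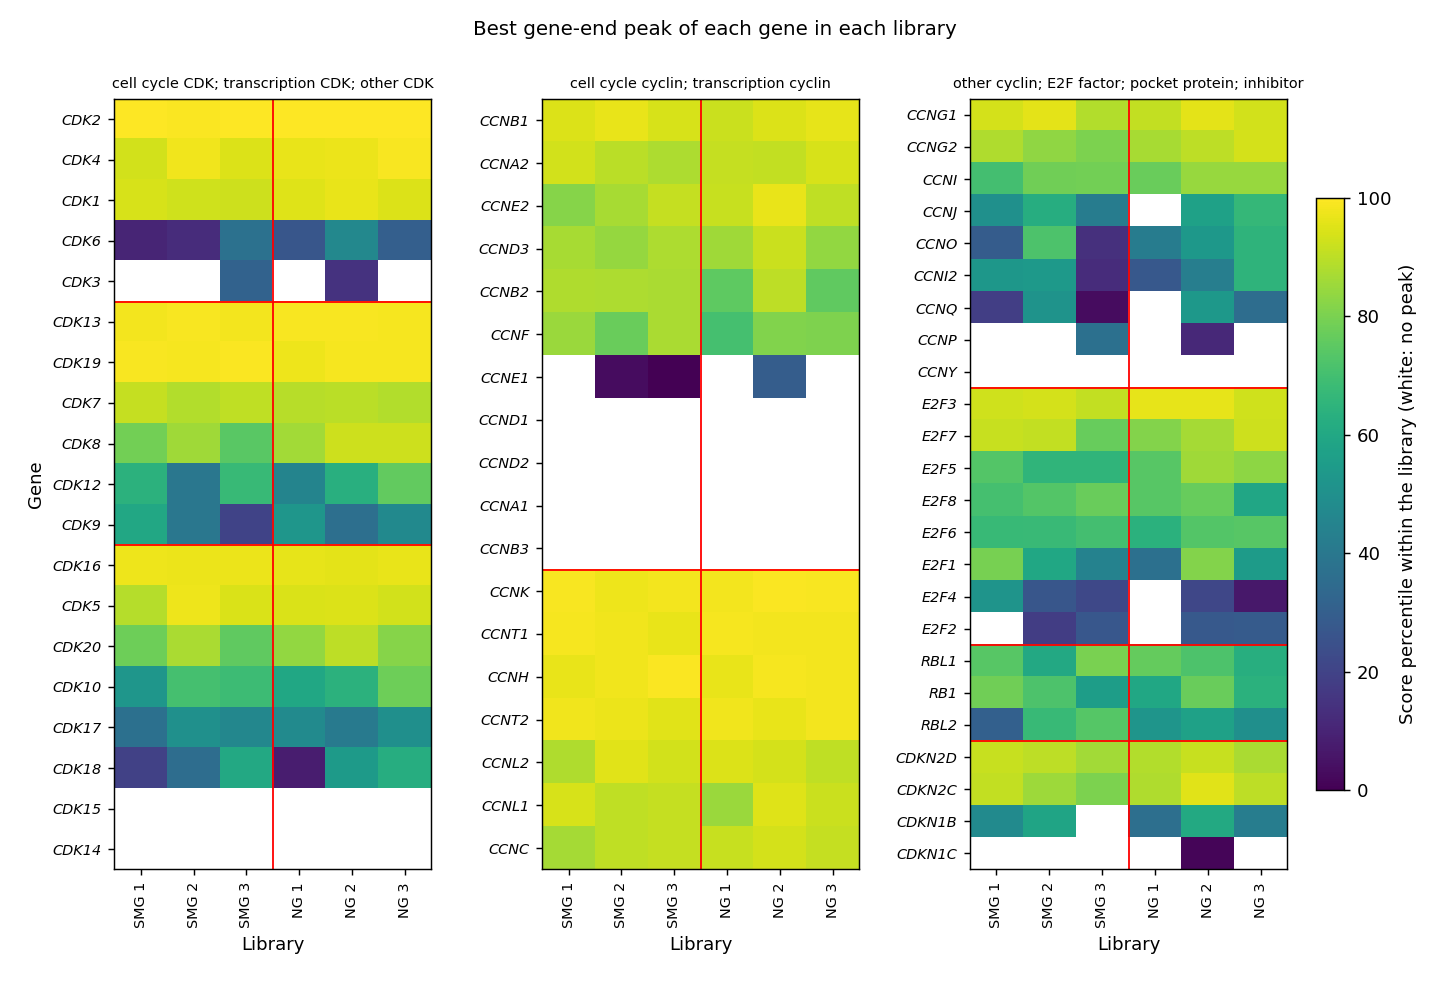
Score percentile of the best gene-end peak (colour, 0 to 100; white, no peak) for each of the 61 genes (rows, grouped by role, strongest mean first) in each library (columns, SMG left and NG right of the red line). The 13 CDKs and cyclins of transcription are coloured in every library, while the cyclins of the cell cycle hold 4 of the 7 rows that are white throughout.

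Of the 5 CDKs that drive the cell cycle, 4 were open in all 6 libraries. CDK2, the partner of cyclins E and A, had the highest mean percentile of all 61 genes, with 99.8, 99.6 and 99.8 in SMG 1 to SMG 3, against 99.9, 99.9 and 99.8 in NG 1 to NG 3. By the authors' fold enrichment its peak stood 14.9, 13.9 and 14.1-fold over the local background in SMG and 15.8, 16.4 and 14.6-fold in NG. That peak (chr12:55973476-55974395 in SMG 1) lies beyond 1 end of CDK2 and over an end of RAB5B, so it may not belong to CDK2. At the other end, shared with PMEL, the peak of CDK2 had percentiles of 63.9, 75.6 and 77.7 in SMG 1 to SMG 3 and 56.4, 78.5 and 76.3 in NG 1 to NG 3. The SMG and NG libraries overlap at both sites. CDK4, which partners D cyclins, had percentiles of 93.0, 97.8 and 94.7 in SMG and 96.6, 97.1 and 99.0 in NG, with overlapping groups.

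CDK6, the other partner of D cyclins, had the lowest mean percentile of the genes open in all 6 libraries, at 27.3. Its gene-end peaks reached 10.4, 12.6 and 37.4 in SMG 1 to SMG 3 and 26.6, 46.8 and 30.1 in NG 1 to NG 3. These were not 1 site: the best peak lay at the far end of the gene in SMG 1, SMG 2, NG 1 and NG 3, and near the start in SMG 3 and NG 2. Much stronger peaks lay inside the gene, as given further on. CDK3 was open only in SMG 3 (31.6) and NG 2 (14.5), and both peaks lay at the far end of the gene, which is shared with an end of EVPL.

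Of the 11 cyclins of the cell cycle, 6 were open in all libraries (CCNA2, CCNB1, CCNB2, CCND3, CCNE2 and CCNF), with mean percentiles from 80.2 to 94.7. For CCNF, an F-box protein that marks proteins for degradation, the best peak again lay at the far end, near an end of TEDC2, and the peak at its start had 63.9, 69.6 and 40.7 in SMG and 66.2, 80.1 and 67.9 in NG. Of the others, 4 lacked any gene-end peak: CCND1 and CCND2, which encode D cyclins, CCNA1, a cyclin A known mainly from the germ line, and CCNB3, a B-type cyclin. CCND3, the D cyclin that was open, had 86.8, 84.2 and 87.7 in SMG 1 to SMG 3 and 85.8, 92.1 and 83.9 in NG 1 to NG 3. These best peaks lay at the far end of CCND3. At its 5′ end another peak, in a region shared with an end of TAF8, had 52.6, 79.6 and 85.1 in SMG and 78.4, 87.8 and 65.2 in NG. Within 1 kb of the listed starts of CCND3 the percentiles were 75.1, 69.7 and 61.6 in SMG and 58.3, 59.9 and 63.8 in NG. They came from a single region (chr6:41938092-41938520) that lay 111.7 kb from the 5′ end, near the far end. Its summits stood 764 to 917 bp past a listed start. The promoter window of that start, as defined further on, held a peak in 0 libraries, as did another. The window of the listed start nearest the 5′ end held one only in SMG 1 (27.1).

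CCNE1, which encodes the cyclin E that partners CDK2 at the start of S phase, had weak and irregular peaks. Its percentiles were 0, 3.33 and 0.0707 in SMG 1 to SMG 3, against 0, 29.4 and 0 in NG 1 to NG 3. The summits stood at -578 and -742 bp from the listed start in SMG 2 and SMG 3 and at -547 bp in NG 2, and no peak of any library touched the window of 250 bases before to 50 after the start. The promoters of the mitotic cyclins CCNA2, CCNB1 and CCNB2 were covered over all 300 bases by a peak in every library.

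Promoter sequences from RefSeq (GRCh38.p14) show the 2 kinds of start. Each line gives the 250 bases before the listed start, 5′ to 3′ in the direction of the gene. In CCNA2 (chr4:121823884-121824133, minus strand) capitals mark a CRE (TGACGTCA) and a CCAAT box, here on the other strand. In CCNB1 (chr5:69166900-69167149, plus strand) they mark CCAAT boxes, and in CCNB2 (chr15:59104896-59105145, plus strand) CCAAT boxes and a CHR (TTTGAA), an element known from genes of late cell cycle. In CCNE1 (chr19:29811741-29811990, plus strand) they mark GC boxes (GGGCGG, either strand). GC boxes also lie in CCNA2 (-197, -174 and -142), CCNB1 (-150) and CCNB2 (-58), where they are left in lower case.
CCNA2: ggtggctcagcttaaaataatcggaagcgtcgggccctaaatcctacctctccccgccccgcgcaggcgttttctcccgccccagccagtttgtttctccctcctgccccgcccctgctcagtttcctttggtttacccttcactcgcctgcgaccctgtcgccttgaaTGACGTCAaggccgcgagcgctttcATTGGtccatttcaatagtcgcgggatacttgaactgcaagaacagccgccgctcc
CCNB1: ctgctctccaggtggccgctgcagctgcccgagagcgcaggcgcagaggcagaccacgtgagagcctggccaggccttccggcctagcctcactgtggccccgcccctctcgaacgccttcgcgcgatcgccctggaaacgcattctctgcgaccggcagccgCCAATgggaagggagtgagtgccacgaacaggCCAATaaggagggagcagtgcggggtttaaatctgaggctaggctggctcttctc
CCNB2: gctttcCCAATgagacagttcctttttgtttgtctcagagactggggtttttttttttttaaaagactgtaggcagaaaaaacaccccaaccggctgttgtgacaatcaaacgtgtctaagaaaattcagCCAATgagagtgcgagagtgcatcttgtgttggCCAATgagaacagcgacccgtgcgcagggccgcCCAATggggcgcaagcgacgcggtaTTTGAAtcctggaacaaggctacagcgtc
CCNE1: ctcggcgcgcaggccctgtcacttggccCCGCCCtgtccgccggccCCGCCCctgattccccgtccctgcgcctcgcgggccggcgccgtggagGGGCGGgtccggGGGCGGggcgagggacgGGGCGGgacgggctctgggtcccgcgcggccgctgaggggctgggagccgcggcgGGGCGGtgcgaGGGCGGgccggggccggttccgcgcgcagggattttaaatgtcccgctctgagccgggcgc
The CCNE1 sequence is 81.2% G and C, against 58.8% in CCNA2, 65.6% in CCNB1 and 48.8% in CCNB2. Summits at CCNA2 lay at -61, -49 and -55 bp in SMG 1 to SMG 3 and at -75, -45 and -42 bp in NG 1 to NG 3, around its CCAAT box at -56. At CCNB2 they lay at -82, -77 and -80 bp in SMG, close to the CCAAT box at -87, and at 86, -48 and 186 bp in NG. The NG 2 summit at -48 lay close to another CCAAT box, at -54, and to the GC box at -58. At CCNB1 the summits lay at -196, -95 and -98 bp in SMG and at -158, -75 and -163 bp in NG. Its CCAAT boxes stand at -87 and -55, so several of these summits lay away from them.

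All 8 E2F genes had a gene-end peak in at least 4 libraries, and 6 had one in all. E2F3, an activator, was the strongest, with percentiles of 91.0 to 93.7 in SMG and 92.9 to 96.3 in NG. E2F1, the first activator described, had 79.3, 59.4 and 44.2 in SMG 1 to SMG 3 and 37.1, 81.5 and 54.9 in NG 1 to NG 3, so its libraries spread widely in both groups. E2F2, the remaining activator, lacked a peak in SMG 1 and NG 1 and otherwise had 18.3 and 27.3 in SMG and 27.8 and 28.7 in NG. Inside E2F2, however, regions 6.2 and 2.6 kb from its 5′ end were held by all 6 libraries at mean percentiles of 73.0 and 69.8. E2F6, E2F7 and E2F8, repressors, were open in all 6 at mean percentiles of 69.4, 86.6 and 71.9.

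The 3 pocket protein genes were open in all 6 libraries at middle percentiles. RB1, the retinoblastoma gene, had 78.4, 72.0 and 55.6 in SMG 1 to SMG 3 and 59.4, 77.3 and 63.9 in NG 1 to NG 3. Its relatives RBL1 and RBL2 had means of 70.9 and 55.2. The E2F words searched (TTTCCCGC, TTTGGCGC, TTTCGCGC and TTTGCCGC, both strands) occurred in 11.7% of 77 promoter windows of these genes, against 3.31% of the 35116 windows in the whole table. That table reaches beyond the 22198 windows of protein-coding genes on the 24 chromosomes. E2F1 and RBL1 each held 2 such words close to the listed start, in capitals below, at -33 and -20 in E2F1 (chr20:33686386-33686635, minus strand) and at -26 and -16 in RBL1 (chr20:37095998-37096247, minus strand). The capitals of E2F1 further upstream mark CCAAT boxes on either strand.
E2F1: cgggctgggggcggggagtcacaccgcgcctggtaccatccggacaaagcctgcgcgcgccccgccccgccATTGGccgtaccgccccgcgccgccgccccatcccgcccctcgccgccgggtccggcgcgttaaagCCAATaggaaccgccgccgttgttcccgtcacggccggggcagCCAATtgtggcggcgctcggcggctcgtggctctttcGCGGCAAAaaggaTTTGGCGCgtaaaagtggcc
RBL1: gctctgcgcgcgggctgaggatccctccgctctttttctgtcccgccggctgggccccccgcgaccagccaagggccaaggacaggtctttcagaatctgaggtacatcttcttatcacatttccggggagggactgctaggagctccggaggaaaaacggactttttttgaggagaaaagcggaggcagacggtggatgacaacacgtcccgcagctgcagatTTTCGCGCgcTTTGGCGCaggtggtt
In E2F1 the summits lay at -244, -149 and -231 bp in SMG and -225, -238 and -243 bp in NG, upstream of the E2F words in every library. The whole of this RBL1 stretch was covered by a peak in all 6 libraries.

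Among the inhibitors, CDKN2C and CDKN2D, which block CDK4 and CDK6, were open throughout at mean percentiles of 88.3 and 89.2. CDKN1B, an inhibitor of CDK2 complexes, had 48.0, 58.5 and 0 in SMG 1 to SMG 3 and 36.7, 60.9 and 42.5 in NG 1 to NG 3. It lacked a peak only in SMG 3, and elsewhere its summit lay within 61 bp of the start. CDKN1C, an imprinted inhibitor, had a single weak peak in NG 2, at percentile 1.52.

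All 6 CDKs and all 7 cyclins with roles in transcription were open in all 6 libraries. The cyclins stood at mean percentiles of 90.8 to 98.6 with a median of 97.2. They are CCNH, part of the CDK-activating kinase with CDK7, CCNC, which partners CDK8 and CDK19 in Mediator, CCNT1 and CCNT2, which partner CDK9, CCNK, which partners CDK12 and CDK13, and CCNL1 and CCNL2, linked to splicing. Of the kinases, CDK13 had 98.3, 99.0 and 98.4 in SMG 1 to SMG 3 and 99.1, 99.1 and 98.8 in NG 1 to NG 3. Its mean was 98.8, and the groups overlap.

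CDK9, the kinase that releases paused RNA polymerase II, was the weakest of the transcription kinases, with 60.1, 39.5 and 20.2 in SMG and 52.7, 36.5 and 47.5 in NG. No peak of any library touched its promoter window, and the peaks stood to its sides. The best peak had its summit at -878, -866 and -859 bp from the start in SMG 1 to SMG 3, and at 358, 423 and -1068 bp in NG 1 to NG 3. Its sequence (chr9:127785784-127786033, plus strand) is 82.0% G and C. In the line for CDK9 and in that for CDK8 (chr13:26253879-26254128, plus strand), shown for the summits described below, capitals mark GC boxes.
CDK9: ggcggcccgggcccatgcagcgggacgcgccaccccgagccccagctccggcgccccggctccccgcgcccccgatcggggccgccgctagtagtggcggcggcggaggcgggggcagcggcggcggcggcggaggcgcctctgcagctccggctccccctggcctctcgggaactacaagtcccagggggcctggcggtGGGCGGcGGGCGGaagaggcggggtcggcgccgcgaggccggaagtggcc
CDK8: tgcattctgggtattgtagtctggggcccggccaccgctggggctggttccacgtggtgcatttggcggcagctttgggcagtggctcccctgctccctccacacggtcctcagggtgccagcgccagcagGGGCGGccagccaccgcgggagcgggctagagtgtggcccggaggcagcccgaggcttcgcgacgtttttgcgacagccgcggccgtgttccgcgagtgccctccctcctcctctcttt
Both are read from RefSeq in the direction of the gene, and the CDK8 stretch is 68.8% G and C.

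Of the remaining CDKs, CDK16 (mean percentile 96.7), CDK5 (93.8), CDK20 (82.8), CDK10 (65.6), CDK17 (45.4) and CDK18 (40.0) were open in all 6 libraries. CDK18 varied most within groups, with 19.4, 35.7 and 60.3 in SMG 1 to SMG 3 and 8.02, 54.4 and 62.3 in NG 1 to NG 3. CDK14 and CDK15 had no gene-end peak. Inside the span of CDK14, 112.8 kb from its 5′ end and near its listed starts, a weak peak was present in SMG 1 (37.4), SMG 2 (1.93), NG 2 (0.891) and NG 3 (29.4).

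Of the 9 remaining cyclins, 5 were open throughout, from CCNI2 at a mean of 42.4 to CCNG1 at 93.0. CCNI2 had 53.0, 53.7 and 12.5 in SMG and 27.5, 42.7 and 65.0 in NG. CCNJ was open in all but NG 1, with 50.0, 62.4 and 42.1 in SMG and 57.3 and 66.6 in NG 2 and NG 3. CCNQ, the activator of CDK10, was likewise missing only in NG 1, with 18.5, 51.2 and 3.48 in SMG and 53.2 and 35.6 in NG 2 and NG 3. NG 1 is the library with the fewest peaks. CCNP had peaks only in SMG 3 (37.0) and NG 2 (11.5), at its far end. CCNY, a cyclin that binds CDK14 and CDK16, had none at its gene ends, but a region near a listed start 89.1 kb inside the gene was held by all 6 libraries. Its percentiles there were 43.6, 56.5 and 66.9 in SMG, against 7.6, 41.7 and 43.7 in NG.

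To compare the groups gene by gene, the percentile of each gene was set against gravity in an exact permutation test, two-sided, over the 20 assignments of 6 libraries into 3 and 3. The smallest p this design allows is 0.1, so no gene could pass 0.05, and of 12071 protein-coding genes tested 0 had an adjusted or an unadjusted p under it. The 54 cyclin, CDK and E2F genes with a peak included 3 whose SMG libraries all stood above the NG libraries (CDK19, E2F4 and CDK16) and 4 whose SMG libraries all stood below (CCNC, E2F5, CDK1 and CDK8). These 7 are 13.0% of the 54, and each had an exact p of 0.1 and a Benjamini-Hochberg adjusted p of 1. Over all genes tested, 3.9% stood above and 5.73% below in the same way. The median difference, SMG minus NG, was -0.757 percentile points for the 54 genes and -0.303 for all genes.

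CDK8 and its partner CCNC, both of the kinase module of Mediator, were among the 4 that stood lower in SMG. CDK8 had 78.8, 85.8 and 74.6 in SMG 1 to SMG 3, against 86.3, 92.5 and 92.5 in NG 1 to NG 3, a difference of -10.7 points. With only peaks at a −log10 q-value of at least 10, the CDK8 groups overlapped (exact permutation p = 0.2). CCNC had 86.6, 90.5 and 91.3 in SMG, against 91.7, 93.5 and 91.4 in NG, a difference of -2.74. The CCNC groups were separated by only a fraction of a point, and without SMG 1 the difference was -1.31. They overlapped with equal numbers of peaks (exact permutation p = 0.2), ranked by fold enrichment (p = 0.2) and at the stricter score (p = 0.5). CDK19, the paralogue that can take the place of CDK8 in Mediator, stood higher in SMG, with 99.2, 98.8 and 99.6 against 97.3, 98.5 and 98.7 in NG, a difference of 1.02 that came to 0.576 without NG 1. Ranked by fold enrichment the CDK19 groups overlapped (exact permutation p = 0.3). Its region also lies at an end of AMD1.

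CDK1, the mitotic kinase, had 94.0, 92.9 and 92.5 in SMG 1 to SMG 3, against 95.0, 96.8 and 94.7 in NG 1 to NG 3, a difference of -2.4. By the authors' fold enrichment its peak stood 9.71, 9.81 and 9.64-fold over background in SMG and 10.3, 11.4 and 11.2-fold in NG, and these groups do not overlap either. E2F5, a repressive E2F, had 73.4, 65.5 and 65.6 in SMG and 74.2, 85.6 and 83.2 in NG, a difference of -12.8. The nearest libraries of the 2 groups, SMG 1 and NG 1, stood at 73.4 and 74.2, and at the stricter score the groups overlapped (exact permutation p = 0.4). CDK16, a kinase activated by CCNY, had 97.5, 96.9 and 96.9 in SMG and 96.4, 96.0 and 96.7 in NG, a difference of 0.733, and ranked by fold enrichment its groups overlapped (exact permutation p = 0.6).

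E2F4, a factor that binds RBL1 and RBL2 in resting cells, had the largest difference of the 7, 24.2 points, with 51.8, 26.8 and 21.6 in SMG 1 to SMG 3, against 0, 21.1 and 6.36 in NG 1 to NG 3. Without SMG 1 the difference was 15.0. The peaks behind it were not 1 site. The best peak had its summit 1012 bp after the 5′ end in SMG 1, 476 bp after it in SMG 3 and NG 2, 18 bp after it in NG 3, and at the far end of the gene, shared with ELMO3, in SMG 2. With windows of 500 bp to each side the difference was 6.96 and the groups overlapped (exact permutation p = 0.6). Around the listed start alone it was 15.3, with 51.8, 0 and 21.6 in SMG and 0, 21.1 and 6.36 in NG.

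**Figure D2:**
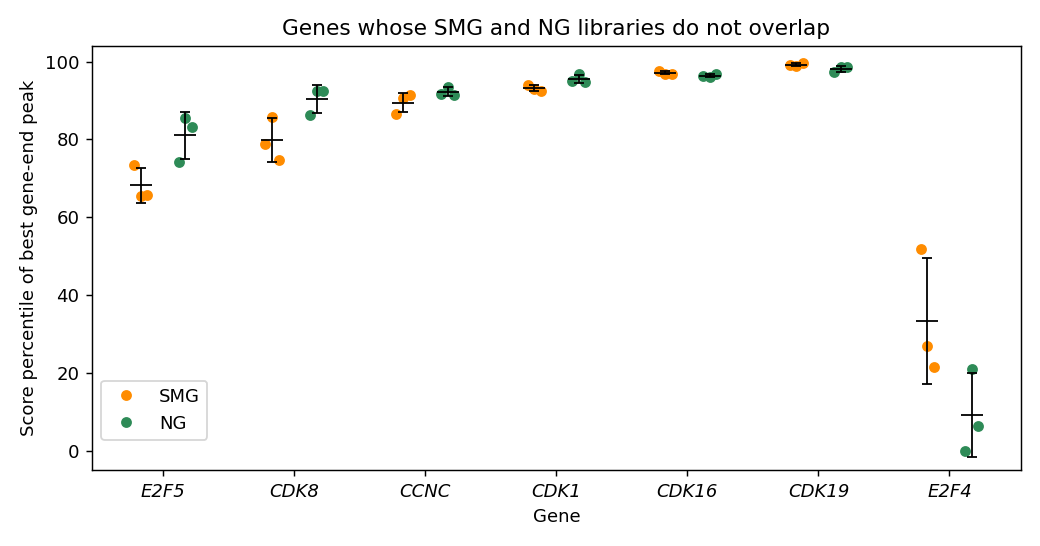
Score percentile of the best gene-end peak (y axis, 0 to 100) in SMG (left, orange) and NG (right, green) for the 7 genes whose groups do not overlap; points are libraries, bars the mean ± SD (n = 3 each). CDK8 averaged 79.7 in SMG and 90.4 in NG, while CDK16 averaged 97.1 in SMG and 96.4 in NG, and E2F4 spread most within groups.

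No cyclin, CDK or E2F gene was open in all SMG libraries and no NG library, or the reverse. Over all protein-coding genes 0.0998% were open in SMG alone and 0.0998% in NG alone. The 7 genes lacking a gene-end peak lacked it in both groups.

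The position of the summit gave another comparison, chosen after its values were seen. At 45 starts of 36 genes whose promoter window held a peak in all 6 libraries, the median summit position was -107 bp, and 29 starts had a median summit within 200 bp. The summit taken was that of the strongest peak overlapping the 1 kb to either side of the start. That peak need not be the one in the promoter window, and starts of the same gene can share 1 peak. The SMG and NG summits did not overlap at 5 starts (CCNB2, CCNG2, CCNO, CDK5 and CDK8), which is 11.1% of the 45, against 8.91% of 8495 starts of all protein-coding genes. At CDK8 the summits lay at -250, -242 and -209 bp in SMG 1 to SMG 3, against -40, -19 and -21 bp in NG 1 to NG 3. The gap of 169 bp between the groups was the widest of the 5. A gap of at least 100 bp was present at 1 of the 45 starts and at 92 of the 8495 (1.08%). The CDK8 peak itself covered the whole printed stretch in every library, so the position of its highest point, not its presence, differed. The other 4 gaps were 29 bp or less.

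Whole gene spans held further open regions. Peaks of the 6 libraries were merged where they overlapped by at least 1 bp, and the 61 spans, 3534 kb in all, held 151 merged regions, or 4.27 per 100 kb. Of these 79 (52.3%) were held by all 6 libraries, against 34.6% of 69562 regions genome-wide, and 38 (25.2%) by a single library, against 34.9%. The 151 include the regions at gene ends, many of them already described as open in all libraries. No separate share was computed for regions away from gene ends, so these shares do not describe gene interiors. SMG 1 to SMG 3 held 103, 107 and 105 of them, and NG 1 to NG 3 held 97, 112 and 105. The mean was 105.0 ± 2.0 in SMG and 104.7 ± 7.51 in NG (SD, n = 3 each), a difference within the spread. None was held by all SMG and no NG libraries or the reverse, where 0.411% and 0.26% of all regions were. Spans of CCND2, CCNA1, CCNF and CCNE1 held no region.

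CDK6 and CCND3, which encode a kinase and a cyclin that bind each other, held many regions inside their long spans. Per 100 kb they held 6.91 and 8.69 regions, against 4.27 over all spans. Several shorter genes held more per 100 kb, such as CDKN2C (21.6) and E2F2 (11.5). The 232 kb span of CDK6 held 16 regions, 6 of them in all libraries and none of those 6 at a gene end. The strongest, at 81.2 kb from its 5′ end (chr7:92754784-92755948), had percentiles of 99.3, 98.6 and 99.2 in SMG 1 to SMG 3 and 98.9, 98.7 and 98.7 in NG 1 to NG 3. Another at 22.8 kb (chr7:92813224-92814291) had 97.0, 96.3 and 97.6 in SMG and 97.4, 96.5 and 97.3 in NG. At 3.0 kb, over the second listed start, the percentiles were 81.2, 76.2 and 75.6 in SMG and 72.6, 83.4 and 68.8 in NG. The low gene-end values of CDK6 thus stood beside strong peaks in its body, and at each of these 3 regions the SMG and NG ranges overlapped.

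The 115 kb span of CCND3 held 10 regions, 7 in all libraries. The strongest lay at 39.7 kb (chr6:42009890-42010868), with 99.2, 97.8 and 98.0 in SMG and 99.4, 98.3 and 98.9 in NG. CCND1, in contrast, held 1 region, present only in SMG 2 (11.9) and NG 2 (25.8). CCNY held 17 regions, 6 in all libraries, while CDK14, with the longest span at 614 kb, held 12, none in all libraries and 10 in a single library. CCNB3 held 1 region, at its listed start 1.9 kb from the gene end, with 0, 43.0 and 71.9 in SMG and 49.9, 62.1 and 65.7 in NG.

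**Figure D3:**
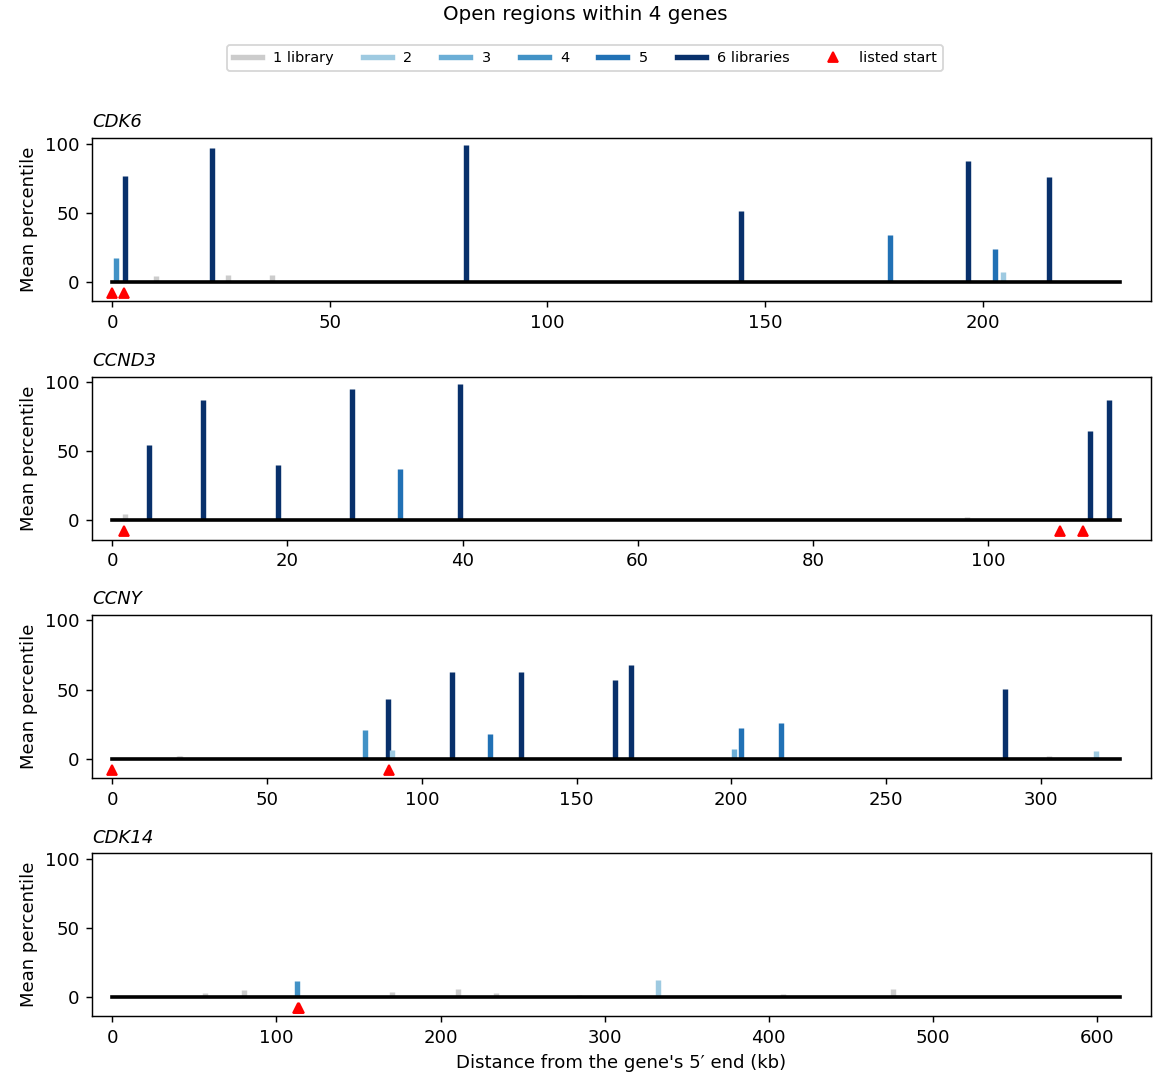
Merged open regions within CDK6, CCND3, CCNY and CDK14, by distance from the gene's 5′ end (x axis, kb) and mean percentile over 6 libraries with 0 where absent (y axis); colour gives the number of libraries that hold a region, and triangles mark listed starts. CDK6 and CCND3 hold regions of all 6 libraries above percentile 95, and CDK14 holds no region of all 6.

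The share of promoters with a peak differed with their G and C content. The RefSeq promoter table held 77 starts of 54 of the genes; CCND1, CCND2, CCNE2, CDK2, CDKN1C, E2F5 and E2F8 had no entry. Of the 77 windows 45 (58.4%) held a peak in all 6 libraries, against 8495 of 22198 (38.3%) for all protein-coding genes. Over all genes that share was 11.9% at 40 to 50% G and C, 57.4% at 65 to 70%, 33.1% at 75 to 80% and 7.79% above that. The 3 windows of cyclin and CDK genes in the highest class were CCNE1 (81.0%), CDK9 (82.0%) and CCNQ (83.3%), and they held a peak in 0, 0 and 5 libraries. Of the 6 windows of these gene families at 75 to 80%, 1 held a peak in all 6 libraries and 1 in 0. Of the 11 at 70 to 75%, 6 held a peak in all 6 libraries and 3 in 0. CDK6 has a window of 78.0% at its first listed start, with a peak in 0 libraries, and of 68.7% at its second, with a peak in 6. The part of G and C content in the low values of these genes was not tested.

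**Figure D4:**
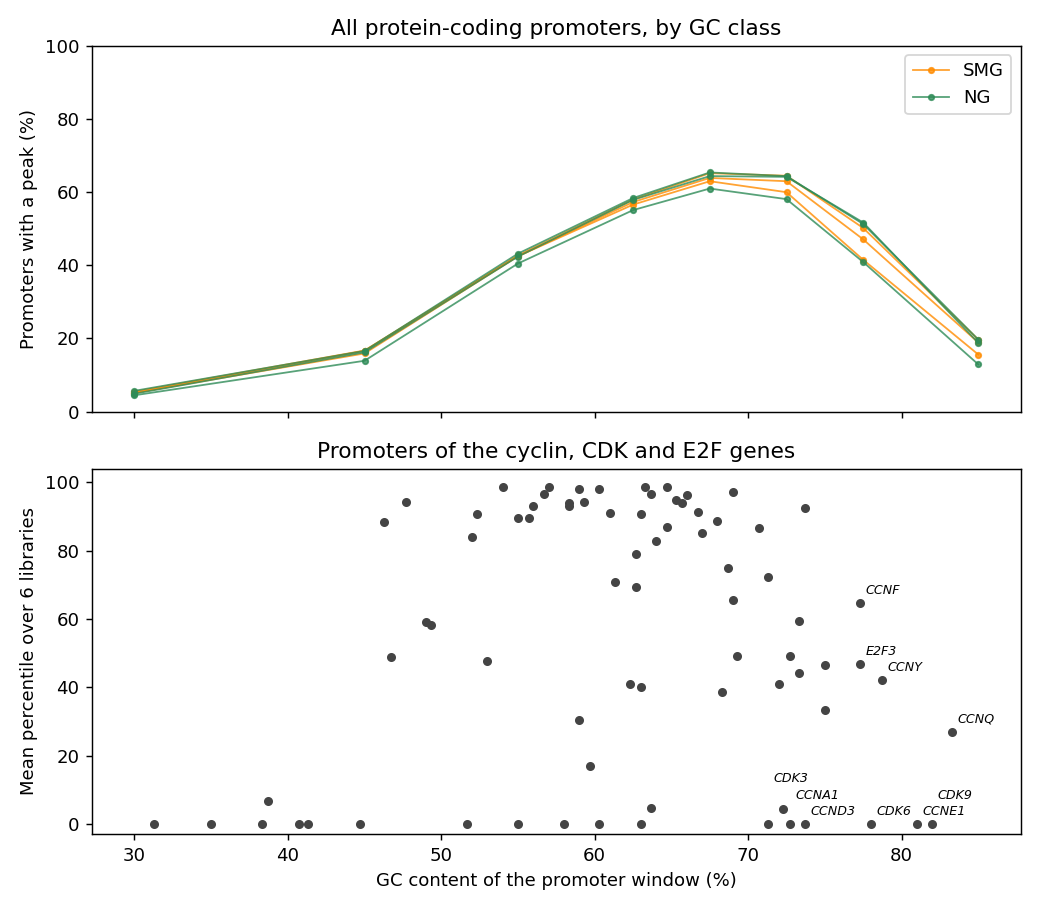
Top, percent of protein-coding promoter windows with a peak (y axis) by G and C content class (x axis, %) in each SMG library (orange) and NG library (green). Bottom, mean percentile over 6 libraries (0 where absent) of the 77 windows of cyclin, CDK and E2F genes by G and C content. CDK6, CCNE1 and CDK9 lie at 0 on the right, in the range where the curves of all 6 libraries fall. CCNF (77.3%), E2F3 (77.3%), CCNY (78.7%) and CCNQ (83.3%) lie above 0 in that range. Windows of CCNA1 (72.7%), CCND3 (73.7%) and CDK3 (71.3%) lie at 0 at lower G and C content.

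Of the other motifs searched on both strands in windows of 250 bases before to 50 after the start, the GC box GGGCGG occurred in 70.1% of the 77 windows and 45.0% of all 35116. The CCAAT box occurred in 39.0% and 34.6%, the CHR words TTTGAA and TTCGAA in 13.0% and 16.4%, and the CRE in 2.6% and 1.85%. The 35116 windows reach beyond the 22198 of protein-coding genes on the 24 chromosomes, for which no separate motif share was computed. A match is a description of letters, not of a bound factor.

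Regulators and partners outside the symbol rule were examined as a list of 38 genes. Of these 32 were open in all 6 libraries, while 46.6% of all protein-coding genes were. Another 2 were open in 5 libraries (LIN9, of the complex that binds CHR elements, and AURKB, a mitotic kinase) and 4 in none. The 4 were CDC25B, a phosphatase that activates CDKs, CDKN1A, a CDK inhibitor, CDK5R1, the activator of CDK5, and CCNJL. LIN52, a partner of LIN9, had 99.9, 99.7 and 99.5 in SMG and 99.7, 99.7 and 99.6 in NG, and SKP2, which targets CDKN1B for degradation, had 98.7, 98.2 and 99.0 in SMG and 99.2, 97.2 and 96.8 in NG. None of the 38 stood above NG in every SMG library, while 3.9% of all genes tested did. Of the 38, 5 stood below (LIN37, CDC25C, CKS2, MED12 and CDK11A), set beside 5.73% of all genes tested. The 4 genes without a peak could not be tested. MED12, the Mediator subunit that activates CDK8 with CCNC, had 60.7, 51.3 and 69.3 in SMG 1 to SMG 3, against 75.6, 80.8 and 75.1 in NG 1 to NG 3. MED13, of the same module, had 77.3, 74.1 and 83.0 in SMG and 71.0, 80.0 and 80.3 in NG, with overlapping groups. CKS2, a small CDK-binding protein, had 93.6, 91.0 and 90.4 in SMG, against 96.2, 97.7 and 97.1 in NG. No p in this design could pass 0.05 for these genes either.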

How the data were processed

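The authors deposited 1 peak list per library, in the narrowPeak layout of MACS2. The build was hg38 and MACS2, SAMtools, Bowtie, BWA and FastQC were used, per the submitters' processing notes. Their versions and settings, the treatment of duplicates and any transposase offset were not given in the sources used here. Per the file contents, the deposited score is 10 times the −log10 q-value, the fold enrichment is a deposited linear ratio of summit height over local background, and the deposited −log10 p-values and −log10 q-values come from the authors' peak caller, with peaks called per library. From fold and −log10 p-value, MACS2's formulas gave the whole-number summit pileup and background of at least 99.98% of peaks within 0.001. Values move with depth, so peaks were ranked within their own library.

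Gene ends, spans and promoters came from RefSeq tables of GRCh38.p14. A gene-end window spans 1 kb to each side of both ends; promoter windows run from 250 bases before to 50 after a listed start. Group differences used the exact permutation test with Benjamini-Hochberg adjustment over all genes tested, in Python 3.11.15 with numpy 2.4.6, pandas 2.3.3 and scipy 1.17.1; the test was tried on simulated data. Values per library are given for genes open in 1 to 5 libraries, genes whose groups do not overlap, the 3 highest and 3 lowest open in all 6, and a core of G1/S genes; a few other genes were picked after seeing their values. The members and lists were chosen with earlier results of these data known. Alternatives tried were other windows, a stricter common score, equal numbers of peaks, ranking by fold, the replicate block and leaving out each library; windows around listed starts and the summit comparison were added after seeing the data.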

Additional observations from a re-analysis of the deposited data

How the results depend on the processing

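The differences between SMG and NG in open genes (0.667) and in regions of gene spans (0.333) have no stable sign: that in open genes was -0.333 with the 500 bp window and 0.0 with the summit in the window. At the stricter common score they were 1.33 open genes and 5.33 regions. In the main setting the SD of the regions was 2.0 in SMG and 7.51 in NG. Genes open in all 6 libraries numbered 45, 45 to 48 when a library was left out, 42 with the 500 bp window or listed starts, and 33 at the stricter common score. Leaving out each library in turn gave a difference, SMG minus NG, of -1.33 to 2.67 open genes and of -3.5 to 4.0 regions, so both signs occurred. Genes whose SMG libraries stood above NG numbered 3 to 5 and those below 4 to 9 in the same settings, where groups of 5 libraries separate more readily: 9 stood below without SMG 1 or SMG 2, 8 without NG 1 or NG 3, and 5 above without SMG 2. With a stricter common score (−log10 q-value of at least 10) 1 gene stood below, against 4, and ranked by fold enrichment 1 stood above, against 3; the cause was not tested. In all 164 alternative values were computed, and 7 of those for these 2 counts moved by over 1.5 times. Differences outside these 2 counts also moved by more than that and are not in the 7. Examples are the regions (0.333 to 5.33 at the stricter score) and E2F4 (24.2 to 6.96 with the 500 bp window). Replicate numbers did not pair the libraries: same-numbered libraries correlated at r = -0.0197, 0.0303 and -0.0757 over genes, as a description. With the replicate block the difference was 0.667 open genes, equal by construction, and each of the 7 genes had p = 0.25 in an exact sign-flip permutation test, the smallest that 3 pairs allow. The windows around listed starts, added after seeing the data, left out 7 genes without an entry, and for RB1 the table lists only a start inside the gene, where no library held a peak. Depth limits weak peaks: an absent peak is one not called at the depth of that library.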

Other observations

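Several other cell cycle regulators of the list of 38 had gene-end peaks of very different strength. FOXM1, a transcription factor of mitotic genes, had percentiles of 20.1, 20.7 and 0.781 in SMG 1 to SMG 3 and 15.7, 45.8 and 57.2 in NG 1 to NG 3. MYBL2, which joins LIN9 and LIN52 in dividing cells, had 19.1, 44.3 and 42.6 in SMG and 54.0, 35.7 and 35.7 in NG. PLK1, a mitotic kinase, had 48.6, 48.5 and 54.4 in SMG and 60.4, 62.1 and 52.7 in NG, and AURKB lacked a peak in NG 1 alone. In contrast FBXO5, an inhibitor of the anaphase-promoting complex, had 97.7, 98.7 and 97.9 in SMG and 98.7, 99.5 and 98.3 in NG. The groups overlap at each of these genes.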
